A study of Gallus gallus with 8 samples.

Results

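The m6A landscape of unstimulated broiler liver comprised 7813 peaks, regions in which RNA captured by an antibody against N6-methyladenosine (m6A) was enriched over input RNA in the control livers. Every entry of the authors' control peak list was taken, with 1 exact repeat dropped, out of 13751 peaks in the LPS and control lists together. The 7813 peaks lay in 5048 genes, and 5034 of these were among the 13427 genes of the authors' expression table. The series holds 8 liver libraries of broilers (meat-type chickens, Gallus gallus) aged 21 days, 2 in each of 4 groups: LPS immunoprecipitate (IP), LPS input, control IP and control input. LPS birds received Escherichia coli lipopolysaccharide, a bacterial cell wall component, at 1 mg/kg into the peritoneal cavity, and control birds received an equal volume of phosphate-buffered saline (PBS). Livers were collected 2 h later from both. The labels name no breed line, sex or genotype, and do not say whether the paired libraries stem from different birds, from pools or from 1 liver.

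N6-methyladenosine is the most common internal modification of vertebrate messenger RNA. A nuclear writer complex places it on adenosines within short consensus motifs, mostly near the stop codon and in the 3′ untranslated region (3′ UTR), demethylases can remove it, and reader proteins of the YTH and other families bind it and affect splicing, export, translation and decay. The antibodies used for such profiling also recognise the related cap-adjacent nucleotide m6Am, so peaks at the start of a transcript cannot be told apart from m6Am by this assay. The liver makes most plasma proteins, and a few secretory mRNAs dominate its mRNA pool, so its most abundant messages belong to a small set of plasma protein and metabolic genes.

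Polyadenylated RNA was cut to fragments of about 100 nt before the antibody step, so a peak marks a stretch of RNA, not a single base. The authors gave 1 list for control IP against control input, with no mention of how the 2 libraries of each kind entered it, and with 1 fold enrichment (IP over input) and 1 p-value per peak. Both are the authors' values and carry no replicate error. Each peak also has 1 location label from the authors, even where it spans several exons. The files hold no read counts, so the depth behind a peak or an expression value is unknown, and no test over samples could be made of a peak. Expression is given in FPKM (fragments per kilobase of transcript, scaled to library size), a level per length, for each control input library. Genes averaging at least 1 FPKM in the control inputs were called expressed, and of these 9604 genes 87.5% differed by less than 1.5-fold between libraries on the FPKM + 1 scale. Hepatocyte markers dominated: 12 of 13 were expressed, with summed levels of 73960 and 71080 FPKM in control input libraries 1 and 2. The urea cycle enzyme CPS1 was the exception at 0.381 and 0.167 FPKM. The 8 matched macrophage markers summed to 1296 and 1501 FPKM, and the 10 matched pancreas, gut and muscle genes to 9.85 and 11.5 FPKM. In whole tissue, fewer cells of a type and less RNA per cell cannot be told apart.

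Peaks were listed for 4837 of the 9604 expressed genes, or 50.4%, and a peak of at least 10-fold for 1711 of them, or 17.8%. With only peaks of p at most 1e-54, a peak was listed for 31.0%. Genes with a peak had a median of 12.7 FPKM (quartiles 5.60 and 33.5), and genes without a peak a median of 5.66 FPKM (quartiles 2.46 and 16.1), so the interquartile ranges overlapped. Genes with a peak carried 66.0% of all FPKM in control input library 1 and 65.3% in library 2. Below 1 FPKM, 197 of 3823 genes were listed with a peak, or 5.15%.

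The commonest mRNAs of the liver were mostly, but not uniformly, listed with peaks. Among the 20 most abundant genes 15 had a peak, among the 50 most abundant 35, among the 100 most abundant 69, and among the 200 most abundant 128. The 100 most abundant genes, with a lowest mean of 718 FPKM, held 47.0% and 47.1% of all FPKM in libraries 1 and 2, and 20 of them had a peak of at least 10-fold, or 20%, beside 17.8% of all expressed genes.

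APOA1, the main protein of high-density lipoprotein, had the highest level of any named gene at 27320 and 25881 FPKM in control input libraries 1 and 2. It carried a 21.8-fold peak in its 3′ UTR and a 3.07-fold peak in its 5′ UTR. ALB, the albumin gene, stood at 22934 and 16540 FPKM and had 1 peak of 26.6-fold in its 3′ UTR. Both libraries placed these genes above every other named gene, and their peaks were the strongest among the 20 most abundant named genes. Haemopexin (HPX), the plasma scavenger of haem, stood at 5868 and 6564 FPKM with a 10.6-fold peak. PIT54, the haemoglobin-binding plasma protein of birds, stood at 7124 and 8333 FPKM with a 7.32-fold peak. The peaks of HPX and PIT54 also lay in the 3′ UTR.

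Weaker peaks were listed on other leading mRNAs. Transferrin (TF), the iron carrier, stood at 3781 and 6147 FPKM with a 3.28-fold peak. LBFABP, a fatty acid-binding protein of liver, stood at 5399 and 4328 FPKM with a 1.99-fold peak. The ferritin heavy chain gene FTH1, which encodes the iron storage protein, stood at 6559 and 8233 FPKM with peaks of 5.72-fold and 1.70-fold. Other genes with a peak among the first 20 named genes were THRSP, VTN, apoAIV (apolipoprotein A-IV), ACTB, FGA, GAL9 (the antimicrobial peptide gallinacin-9) and FGB, with highest peaks between 3.00-fold and 6.96-fold.

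The other 5 of the first 20 named genes encode secreted proteins and had no listed peak. AHSG, fetuin A, stood at 6193 and 7103 FPKM, above HPX. Transthyretin (TTR), a carrier of thyroid hormone, stood at 3630 and 5723 FPKM. Secreted phosphoprotein 24 (SPP2) stood at 2864 and 3666 FPKM. These 3 levels were within the range of genes that did have a peak. The vitamin D carrier GC stood at 2702 and 3576 FPKM, and the retinol carrier RBP4 at 2980 and 3198 FPKM. The next named genes without a peak were RARRES2 (chemerin), UbI (polyubiquitin), SPINK7, PURH (the purine synthesis enzyme ATIC) and DHRS7, between 1564 and 2432 FPKM on average. A gene with no symbol in the table, ENSGALG00000026592, had the highest mean level of all, at 26631 and 28379 FPKM, and no listed peak.

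**Figure D1:**
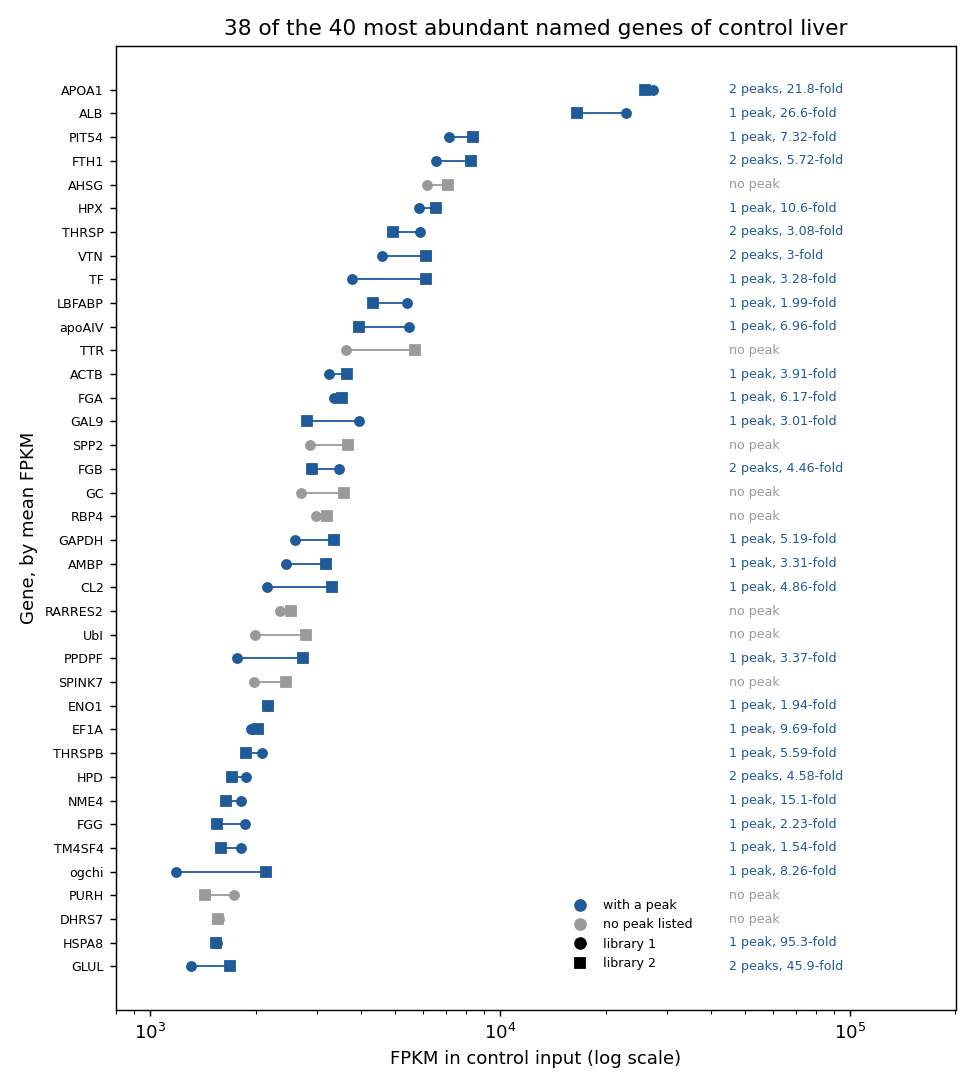
FPKM of 38 of the 40 most abundant named genes in control input, on a log scale, with library 1 as circles and library 2 as squares joined by a line, in blue for genes with a listed m6A peak and grey for genes without. The right-hand text gives the number of peaks and the highest fold enrichment: APOA1 and ALB lead with 21.8-fold and 26.6-fold peaks, while AHSG, TTR, SPP2, GC and RBP4 stand among them without a peak.

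Below the first 20, some abundant mRNAs had far stronger peaks. HSPA8, the constitutive cytosolic chaperone, stood at 1548 and 1540 FPKM and had a 95.3-fold 3′ UTR peak. HSPA5, the chaperone of the endoplasmic reticulum, stood at 1506 and 1211 FPKM with a 47.1-fold 3′ UTR and a 5.64-fold 5′ UTR peak. In both of these genes the 3′ UTR held the strongest peak. The next 3 genes were chosen after their values were seen. Glutamine synthetase (GLUL) stood at 1310 and 1690 FPKM with a 45.9-fold 3′ UTR peak. The mitochondrial protein gene CHCHD10 stood at 819 and 956 FPKM with a 108-fold 3′ UTR peak. Complement factor D (CFD), the protease that starts the alternative pathway, stood at 939 and 806 FPKM, and its highest peak was 151-fold.

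Close relatives differed in whether a peak was listed, although reads shared between near-identical copies could be split by the counting, so these pairs are uncertain. LBFABP had a peak, as above, while LFABP, also described as a liver fatty acid-binding protein, stood at 1253 and 1534 FPKM without any. The thyroid hormone-responsive lipogenic gene THRSP, at 5915 and 4944 FPKM, had peaks of 3.08-fold and 2.47-fold. A second entry of that name, described as spot 14 beta, stood at 892 and 1919 FPKM with no peak. The related THRSPB stood at 2087 and 1872 FPKM with a 5.59-fold peak. LFABP and the second THRSP entry were chosen after their values were seen.

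The share of genes with a peak was higher at higher levels up to about 10 FPKM and nearly flat beyond, but the flat range depended on the peak threshold. It was 26.9% of 2035 genes at 1 to 3 FPKM, 48.1% of 3126 at 3 to 10 FPKM and 61.5% of 2364 at 10 to 30 FPKM. It was 63.9% of 1341 genes at 30 to 100 FPKM, 63.6% of 456 at 100 to 300 FPKM, 64.4% of 216 at 300 to 1000 FPKM and 68.2% of 66 at 1000 FPKM and over. The share with a peak of at least 10-fold was highest in the class from 10 to 30 FPKM, at 23.3%, against 11.1% at 1 to 3 FPKM and 19.7% at 1000 FPKM and over. With only peaks of p at most 1e-54 the share was 6.78% at 1 to 3 FPKM, 43.4% at 10 to 30 FPKM and 65.2% at 1000 FPKM and over, and with only peaks of at least 3.18-fold it was 25.6%, 52.2% and 47.0% in the same classes. A missing peak in the lowest classes says only that none was detectable at a depth that is unknown.

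**Figure D2:**
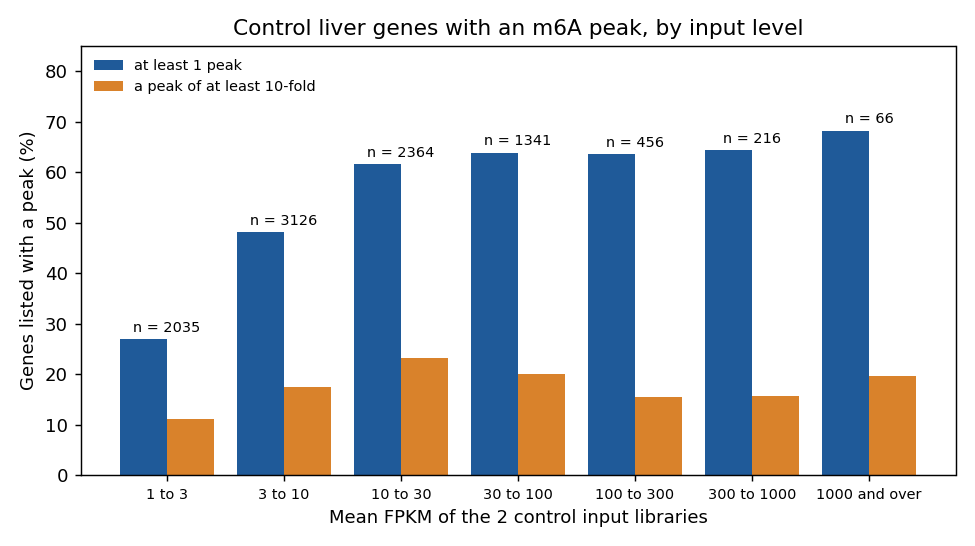
Share of control liver genes listed with at least 1 m6A peak (blue) and with a peak of at least 10-fold (orange), by mean FPKM of the 2 control inputs, with the number of genes above each pair of bars. The blue bars climb from 26.9% to 61.5% over the 3 lowest classes and then stay between 63.6% and 68.2%.

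The median fold enrichment of listed peaks was lower in more abundant genes. The median of each gene's highest peak was 8.51-fold at 1 to 3 FPKM, 7.56-fold at 3 to 10, 7.53-fold at 10 to 30, 5.93-fold at 30 to 100, 5.08-fold at 100 to 300, 4.82-fold at 300 to 1000 and 4.86-fold at 1000 FPKM and over. Across the 7569 peaks of expressed genes, Spearman's rank correlation of fold enrichment with mean FPKM was -0.22, a description over peaks that share libraries and, in part, genes. The input enters both measures, as the divisor of the fold and as the level. A fold is known only for peaks that passed the authors' listing. The part that either plays in the relation was not tested. The same coefficient was -0.17 for 3′ UTR peaks, -0.21 for 5′ UTR peaks and -0.34 for exon peaks. A wide spread remained at every level, with quartiles of 3.00-fold and 10.6-fold in the highest class and of 5.04-fold and 16.5-fold in the lowest.

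Fold enrichment moved more closely with the length of a peak than with the level of its gene. The rank correlation with the exonic length of the peak was 0.61 over the same 7569 peaks. Peaks under 100 exonic bases had a median of 2.60-fold, those of 100 to 200 bases 3.33-fold, those of 200 to 300 bases 5.15-fold, those of 300 to 500 bases 8.06-fold, those of 500 to 1000 bases 11.6-fold and longer ones 16.9-fold. The part that peak length plays in the relation with level was not tested.

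**Figure D3:**
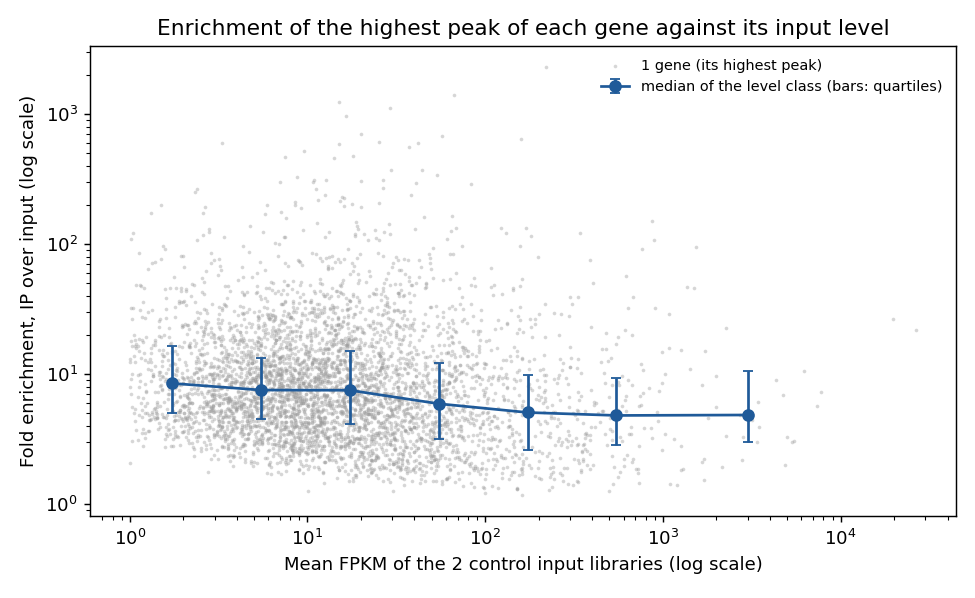
Fold enrichment of the highest control peak of each expressed gene (grey points) against mean FPKM of the 2 control inputs, both on log scales, with the median and quartiles of each level class in blue at the middle of the class. The medians go from 8.51-fold in the lowest class to 4.86-fold in the highest, while single genes reach 2300-fold.

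Over all 7813 peaks the fold enrichment had a median of 5.51 and quartiles of 3.18 and 10.8, and 2113 peaks (27.0%) reached 10-fold. Only 105 peaks reached 100-fold, and 566 peaks (7.24%) were under 2-fold. The peaks had a median of 241 exonic bases (quartiles 151 and 389), and 64.7% lay in 1 exon block.

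Among named expressed genes, the 5 strongest peaks lay on genes under 300 FPKM, where most expressed genes stand. Of the 9604 expressed genes, only 216 stood at 300 to 1000 FPKM and 66 at 1000 FPKM and over. BF1, a class I major histocompatibility gene that presents peptides to T cells, stood at 167 and 272 FPKM and had a 2300-fold 3′ UTR peak at chr16:71990-73366 in the coordinates of the authors' list, whose genome build is not named in the sources used here. Class I genes of this family are near-identical copies, so its value is uncertain. The tight junction gene CLDN2, at 64.4 and 68.4 FPKM, had a 1410-fold 3′ UTR peak. IGSF9, a cell adhesion gene of the immunoglobulin superfamily, had a 1240-fold exon peak at 11.7 and 18.4 FPKM. PCYOX1L, a relative of the prenylcysteine oxidases, had a 1120-fold 3′ UTR peak at 30.4 and 27.8 FPKM, and the ubiquitin ligase gene RNF121 a 973-fold 3′ UTR peak at 15.7 and 17.2 FPKM.

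The weakest listed peaks of named expressed genes lay on abundant genes. The lowest was 1.16-fold, in an exon of acl (ATP citrate lyase, which makes cytosolic acetyl-CoA for lipid synthesis), at 1032 and 939 FPKM. The ribosomal stalk gene RPLP2 and the complement inhibitor SERPING1 each had a 1.18-fold exon peak, and the mitochondrial chaperone HSPD1 had a 1.20-fold exon peak. The fatty acid desaturase FADS2 had a 1.20-fold 3′ UTR peak. Of these genes, FADS2, at 855 and 954 FPKM, also had a 32.1-fold peak in its 5′ UTR. SERPING1, at 642 and 878 FPKM, also had a 91.6-fold exon peak. The highest peak of HSPD1 was 5.75-fold and that of acl 2.61-fold, and RPLP2 had no other.

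By the authors' annotation, 3531 peaks (45.2%) lay in a 3′ UTR, 599 (7.67%) in a 5′ UTR and 3683 (47.1%) in another exon. The label need not hold for the whole peak. Only 77.7% of 3′ UTR peaks, 42.7% of 5′ UTR peaks and 55.7% of exon peaks lay in 1 block. The 5′ UTR peak of FGA, for example, covered 2398 exonic bases in 6 blocks. The median fold enrichment was 6.30 in 3′ UTRs, 6.62 in 5′ UTRs and 4.76 in exons. Among the exon peaks, 2245 lay in internal exons with a median of 4.31-fold, 718 in the last exon with 5.27-fold, 504 in the first exon with 5.65-fold and 216 in a transcript's sole exon with 7.78-fold. Of the 2744 3′ UTR peaks in 1 block, 20.8% ended at the annotated transcript end, and the median distance of a peak from that end was 477 bases (quartiles 30 and 1344). Of the 5′ UTR peaks, 334 of 599 (55.8%) covered the annotated transcript start.

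Where peaks lay differed along the range of levels. The 3′ UTR share was 35.6% of peaks in genes of 1 to 3 FPKM, 47.0% at 10 to 30 FPKM and 68.2% at 1000 FPKM and over. The exon share was 60.5%, 45.5% and 18.2% in the same 3 classes. The 5′ UTR share was 3.92% in the lowest class and 13.6% in the highest. The median fold of exon peaks was 6.89 at 1 to 3 FPKM and 1.55 at 1000 FPKM and over, that of 3′ UTR peaks 7.42 and 3.91, and that of 5′ UTR peaks 14.2 and 4.46. The highest class rests on 66 peaks of all 3 kinds together, so its exon and 5′ UTR medians rest on far fewer.

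**Figure D4:**
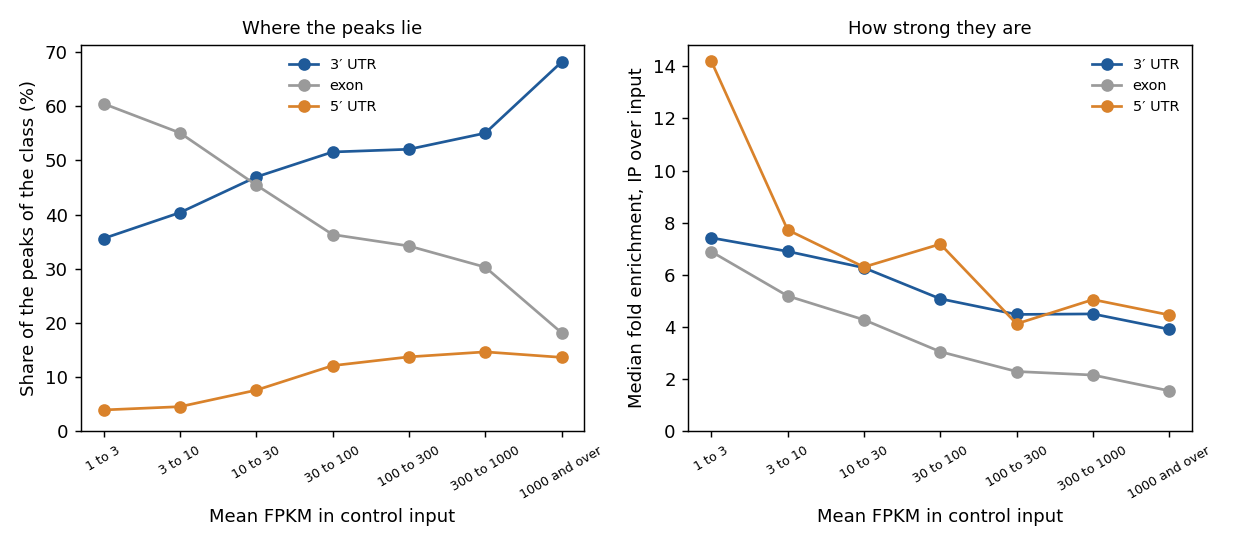
Left, share of the control peaks of each expression class that the authors annotated to a 3′ UTR (blue), another exon (grey) or a 5′ UTR (orange). Right, the median fold enrichment (IP over input) of the same peaks. The 3′ UTR share goes from 35.6% in the lowest class to 68.2% in the highest, and the median of exon peaks goes from 6.89-fold to 1.55-fold. The highest class holds 66 peaks, of which 18.2% are exon peaks.

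Most genes with a peak had a single entry: the median was 1 peak and the mean 1.55, and 1825 of 5048 genes (36.2%) had at least 2, or 22.9% with only peaks of p at most 1e-54. Peaks were confined by annotation to the 3′ UTR in 1973 genes and to exons in 1781, while 728 had both, 226 had 5′ UTR peaks alone, 199 had 5′ and 3′ UTR peaks and 64 had all 3 kinds. Within genes with several peaks, the strongest was a median of 2.63 times the weakest (quartiles 1.55 and 5.35). Of the 792 genes with peaks of both kinds, 533 (67.3%) had their higher fold in the 3′ UTR rather than in an exon, with a median ratio of 1.66 (quartiles 0.786 and 3.59). Of 263 genes with peaks in both UTRs, 141 (53.6%) had the higher fold in the 3′ UTR.

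The named genes with the most peaks mostly stood at levels common among expressed genes with a peak, whose quartiles were 5.60 and 33.5 FPKM. TNRC18 had 11 peaks at 12.3 and 17.5 FPKM, of which 5 were annotated to the 5′ UTR and 3 to the 3′ UTR. BAHCC1, which encodes a chromatin reader, also had 11, all in exons, at 8.52 and 8.51 FPKM, and its strongest was 201-fold. ANKRD11, a nuclear co-regulator, had 9 peaks and SETD2, the histone H3 lysine 36 methyltransferase, had 8. Their highest folds were 11.7 for ANKRD11 and 16.7 for SETD2, against 120 for ZC3H13, which also had 8 peaks. NES, the intermediate filament gene nestin, had 9 exon peaks at 1.11 and 1.67 FPKM. The ribosome biogenesis gene TCOF1, the non-muscle myosin MYH10, the complement component C4 and the ribosomal RNA processing gene FTSJ3 had 7 each. Of the named 10, C4 (223 and 281 FPKM) and FTSJ3 (196 and 201 FPKM, highest peak 79.7-fold) stood at the highest levels.

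The m6A machinery itself was listed with peaks in 20 of 24 expressed genes, or 83.3%, beside 55.5% of all expressed genes at the same levels, that is, with the share of each FPKM class weighted by the list's members. Among the writers, ZC3H13, a scaffold of the writer complex, had 8 peaks at 22.3 and 19.5 FPKM, the strongest of 120-fold in an internal exon and the weakest of 1.61-fold. METTL14, the RNA-binding partner of the catalytic subunit, stood at 3.81 and 4.47 FPKM with an 18.1-fold 3′ UTR peak. That catalytic subunit, METTL3, is not covered here: only 25 of the list's 28 names matched a gene, and it is not among them. WTAP, the adaptor of the complex, stood at 18.3 and 16.7 FPKM with exon peaks of 4.97-fold and 4.44-fold. Of the other writer components read from the table, peaks were listed for KIAA1429 (VIRMA) at 4.73-fold, CBLL1 (HAKAI) at 23.1-fold, RBM15 at 14.3-fold and RBM15B at 12.5-fold. RBM15 was the lowest of them in level, at 1.22 and 2.47 FPKM, and had 3 peaks. Of the methyltransferases that act on other RNAs, METTL16, which modifies U6 snRNA and the MAT2A message, had a 9.75-fold peak and METTL5, which modifies 18S ribosomal RNA, a 7.71-fold peak, while ZCCHC4, which modifies 28S ribosomal RNA, had none at 3.54 and 2.68 FPKM.

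The erasers differed in level. ALKBH5 stood at 32.8 and 38.4 FPKM with an 8.55-fold 5′ UTR peak and a 3.99-fold 3′ UTR peak, while FTO stood at 0.197 and 0.153 FPKM, below the expression threshold, with no listed peak. Both libraries placed FTO far under ALKBH5.

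Among the readers, the cytoplasmic YTHDF2, which promotes mRNA decay, had the strongest peak of the YTH family, 24.2-fold, at 15.5 and 17.9 FPKM. YTHDF1 had a 6.83-fold, YTHDF3 a 7.97-fold and the nuclear YTHDC1 an 8.86-fold peak, all in exons. YTHDC2, at 4.02 and 2.77 FPKM, had none. The RNA-stabilising reader IGF2BP2 had a 23.0-fold 3′ UTR peak and IGF2BP3 a 2.58-fold one, while IGF2BP1, at 3.90 and 4.30 FPKM, had none. HNRNPA2B1, a nuclear RNA-binding protein, stood highest of the list at 270 and 240 FPKM, with peaks of 9.34-fold and 3.35-fold. RBMX, EIF3A and FMR1 had highest peaks of 4.70-fold, 12.3-fold and 6.80-fold, and ELAVL1, an mRNA-stabilising protein, had none at 21.5 and 24.0 FPKM. The 4 expressed members without a peak thus stood between 2.68 and 24.0 FPKM.

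Over 21 lists of gene groups, 429 of 632 expressed members (67.9%) had a peak, beside 50.4% of all expressed genes, and most lists hold genes above the typical level. Shares are therefore given beside those of all expressed genes at the same levels. The matching, here and for the m6A machinery above, is by FPKM class only. FPKM is a level per length, and transcript length was not matched. The part that it plays in a list's share or in its peaks per gene was not tested. Shares under a stricter fold or p, and of peaks of at least 10-fold, stand beside all expressed genes without such matching. With p at most 1e-54, the share of all genes was 6.78% at 1 to 3 FPKM, 43.4% at 10 to 30 and 65.2% at 1000 and over. A list's share beside 31.0% therefore also reflects its levels. No list was tested, so no difference between a list's share and the share beside it is called.

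Of 53 chromatin modifiers 40 had a peak, or 75.5% beside 47.0%, and 24 of the 53 (45.3%) had a peak of at least 10-fold beside 17.8% of all expressed genes. Their peaks averaged 2.70 per gene with a peak, beside 1.55 over all genes with a peak. Of these peaks 23.1% lay in the 3′ UTR, beside 45.2% of all peaks. With only peaks of p at most 1e-54 the list's share was 54.7%, beside 31.0% of all expressed genes. DNMT3A, a DNA methyltransferase, stood at 33.6 and 36.9 FPKM with 3 peaks, the highest of 58.8-fold. The acetyl-lysine reader BRD2 stood at 114 and 131 FPKM with 4 peaks of up to 11.2-fold. The histone acetyltransferase KAT2B, at 40.4 and 24.7 FPKM, and the deacetylase HDAC8, at 29.0 and 34.6 FPKM, had none.

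Liver transcription factors and nuclear receptors had a peak in 19 of 23 expressed genes, or 82.6% beside 55.2% at the same levels. ATF4, the effector of the integrated stress response, stood at 666 and 685 FPKM with a 39.2-fold 5′ UTR and a 10.4-fold 3′ UTR peak. CEBPB, which drives acute-phase genes, stood at 273 and 328 FPKM with a 39.6-fold peak in its sole exon. CEBPA, listed under the symbol EBP and described as CCAAT/enhancer binding protein alpha, stood at 286 and 316 FPKM with a 16.2-fold peak. These 3 stood highest in level on the list. The 4 members without a peak were ATF6, ESR1 and the 2 entries named PPAR, all under 11 FPKM in both libraries.

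Immediate early genes had a peak in 21 of 26 expressed members, or 80.8% beside 57.6%. JUN, a subunit of the AP-1 transcription factor, stood at 110 and 166 FPKM with a 13.8-fold exon peak, and EGR1, a zinc finger factor, at 97.8 and 105 FPKM with 2 peaks of up to 7.86-fold. The antiproliferative gene BTG1 stood at 185 and 223 FPKM with a 4.15-fold peak. KLF9, DUSP4 and CYR61, between 5.86 and 20.1 FPKM, had none.

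Genes of cytokine signalling and its feedback inhibitors had a peak in 27 of 38 members, or 71.1% beside 50.4% at the same levels. With only peaks of p at most 1e-54 the list's share was 34.2%, beside 31.0% of all expressed genes. STAT3, which relays interleukin-6 signals, stood at 152 and 166 FPKM with 2 weak exon peaks of 1.85-fold and 1.26-fold. TNIP1, an inhibitor of NF-κB signalling, stood at 75.2 and 85.4 FPKM with a 15.1-fold peak, and the interferon-gamma receptor chain IFNGR2 at 58.6 and 66.0 FPKM with an 8.66-fold peak. IL1RAP and JAK1, between 50.5 and 71.4 FPKM, had none.

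Heat shock and endoplasmic reticulum folding genes had a peak in 31 of 38 members, or 81.6% beside 60.3%, led by HSPA8 and HSPA5. With only peaks of p at most 1e-54 their share was 60.5%, beside 31.0% of all expressed genes, not matched by level. HSP90B1, the endoplasmic reticulum member of the HSP90 family, stood at 1270 and 783 FPKM with peaks of only 3.48-fold and 1.60-fold. The mitochondrial co-chaperonin HSPE1, at 539 and 519 FPKM, and the translocon subunits SEC61B and SEC61A1 had none. Messenger RNA decay genes had a peak in 29 of 43 members (67.4% beside 52.7%). With only peaks of p at most 1e-54 their share was 34.9%, beside 31.0% of all expressed genes. The nonsense-mediated decay factors UPF3B and UPF1 had highest peaks of 22.6-fold and 5.94-fold, whereas the poly(A)-binding protein gene PABPC1, the highest of that list at 414 and 429 FPKM, had none. Circadian clock genes had a peak in 7 of 14 members (50.0% beside 50.6%). With only peaks of p at most 1e-54 their share was 28.6%, beside the same 31.0%. The repressor BHLHE40 had the highest clock gene peak, 68.5-fold, at 10.5 and 4.97 FPKM, and CRY2, CRY1 and the kinase gene CSNK1E had none.

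Among secreted products of the hepatocyte, plasma carrier and transport proteins had a peak in 11 of 16 members (68.8% beside 63.8%), with ALB, HPX and TF among them and AHSG, TTR and GC not. Complement and coagulation genes had a peak in 22 of 29 members (75.9% beside 64.6%). The adhesion protein vitronectin (VTN) stood at 4582 and 6130 FPKM with peaks of 3.00-fold and 2.77-fold, and the fibrinogen chains had highest peaks of 6.17-fold (FGA), 4.46-fold (FGB) and 2.23-fold (FGG). Heparin cofactor II (SERPIND1), at 647 and 547 FPKM, and the membrane attack components C8A and C8G had none.

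Apolipoproteins and lipoprotein-handling genes had a peak in 8 of 13 members (61.5% beside 63.0%). APOB, the structural protein of very-low-density lipoprotein, stood at 179 and 104 FPKM with 6 peaks, all between 1.90-fold and 3.52-fold. LCAT, which esterifies plasma cholesterol, stood at 346 and 322 FPKM with a 39.6-fold peak. MTTP, which loads lipid onto apolipoprotein B, and APOO had none. APOB and LCAT were chosen after their values were seen.

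Genes of fatty acid and triglyceride synthesis had a peak in 22 of 28 members (78.6% beside 61.2%). Of those 22, 63.6% had 2 or more peaks, beside 36.2% of all genes with a peak. The desaturase SCD, at 1261 and 1258 FPKM, had peaks of only 1.82-fold and 1.79-fold, and fatty acid synthase (FASN), at 541 and 450 FPKM, had 5 peaks of up to 6.72-fold. The lipid droplet gene PLIN2, at 556 and 448 FPKM, and the elongase ELOVL5, at 388 and 357 FPKM, had none.

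Genes of cholesterol synthesis and sterol sensing had a peak in 18 of 23 members (78.3% beside 63.1%). The demethylase CYP51A1 stood at 637 and 687 FPKM with a 3.92-fold peak, and squalene synthase (FDFT1) at 585 and 634 FPKM with 3 peaks of up to 21.8-fold. SC5D, the desaturase near the end of the pathway, had a 123-fold peak in its 5′ UTR at 283 and 402 FPKM. FDPS, which makes farnesyl diphosphate, had no listed peak at 748 and 983 FPKM. SC5D was chosen after its value was seen.

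Fatty acid oxidation and ketone synthesis had a peak in 16 of 28 members (57.1% beside 60.9%). The trifunctional protein split: its beta subunit HADHB, at 427 and 534 FPKM, had a 15.6-fold peak, and its alpha subunit HADHA, at 380 and 454 FPKM, had none. Glycolysis, gluconeogenesis and glycogen genes had a peak in 18 of 27 members (66.7% beside 61.8%). The glycolytic enzyme gene GAPDH had a 5.19-fold peak at 2597 and 3340 FPKM and ENO1 a 1.94-fold peak at 2154 and 2166 FPKM, while UGP2, LDHA and GPI had none. Drug, bile acid and conjugation enzymes had a peak in 17 of 23 members (73.9% beside 62.4%). With only peaks of p at most 1e-54 their share was 43.5%, beside 31.0% of all expressed genes, not matched by level. CYP1A1, described as cytochrome P450 1A5, stood at 1297 and 1547 FPKM with a 10.9-fold peak, and the bile acid enzyme CYP27A1 at 573 and 697 FPKM with a 32.5-fold peak. The oxidase cyp3A37, at 514 and 405 FPKM, had none.

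Among abundant housekeeping complexes, cytosolic ribosomal proteins had a peak in 31 of 59 members (52.5% beside 64.6%). Only 2 of the 59 had a peak of at least 10-fold (3.39% beside 17.8% of all expressed genes). In the 3′ UTR lay 78.1% of their 32 peaks, beside 45.2% of all peaks and 55.1% of peaks in genes of 300 to 1000 FPKM. RPSA and RPLP1 had peaks of 2.83-fold and 3.20-fold and RPL19 one of 8.59-fold, while RPL27, RPS3A and RPLP0 had none, the last at 966 and 1196 FPKM. The nuclear-encoded respiratory chain had a peak in 23 of 50 members (46.0% beside 63.5%). The ATP synthase beta subunit ATP5B, at 1078 and 1460 FPKM, had a 15.3-fold peak, and the alpha subunit ATP5A1, at 433 and 531 FPKM, had none, like COX4I1 and COX5A. Proteasome subunits had a peak in 15 of 32 members (46.9% beside 62.6%). With only peaks of at least 3.18-fold their share was 25%, beside 42.2% of all expressed genes. A peak of at least 10-fold was listed for 6 of the 32 (18.8%), beside 17.8% of all expressed genes. PSMB4 had an 11-fold peak at 154 and 197 FPKM, and PSMB7, PSMB1 and PSMB3, at 103 to 209 FPKM, had none.

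Translation factors had a peak in 27 of 38 members (71.1% beside 63.3%). With only peaks of p at most 1e-54 their share was 44.7%, beside 31.0% of all expressed genes, not matched by level. The elongation factor EEF2 stood at 420 and 497 FPKM with a 5.19-fold peak, and EIF4G2, which supports cap-independent initiation, at 192 and 163 FPKM with a 26.7-fold peak. The helicase EIF4A2, at 533 and 427 FPKM, EEF1B2 and EIF3H had none.

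By the authors' gene labels, mitochondrially encoded genes had a peak in 10 of 12 members (83.3% beside 63.6%). Their peaks were strong, with a median highest fold of 28.6. These peaks ran from 165 exonic bases (labelled ATP6) to 1312 (labelled ND5). That of ND2 covered 1041, beside a median of 241 over all peaks. The longest ones therefore mark long stretches and not local sites. The complex I subunit ND2 stood at 35.3 and 66.9 FPKM with a 93.7-fold peak, the strongest of the list and chosen for it, and the oxidase subunit COX1 at 207 and 389 FPKM with a 6.67-fold peak. Levels of this list differed between the control inputs: they summed to 860 FPKM in library 1 and 1844 FPKM in library 2, and the ATP synthase subunit ATP6 stood at 13.6 and 301 FPKM. Fold enrichment divides by input, and what this difference does to these folds was not tested. ATP8 and ND4L, which overlap their neighbours on the mitochondrial genome, had none under their own labels. The labels are uncertain there: the peak labelled ATP6, at MT:9085-9249, overlaps one labelled COX3, at MT:9240-9923. A peak labelled ND4, at MT:11196-11492, likewise overlaps a further ND4 peak, at MT:11486-12175. Whether such peaks belong to ATP8 or ND4L was not tested, so the count of 10 of 12 rests on the labels.

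**Figure D5:**
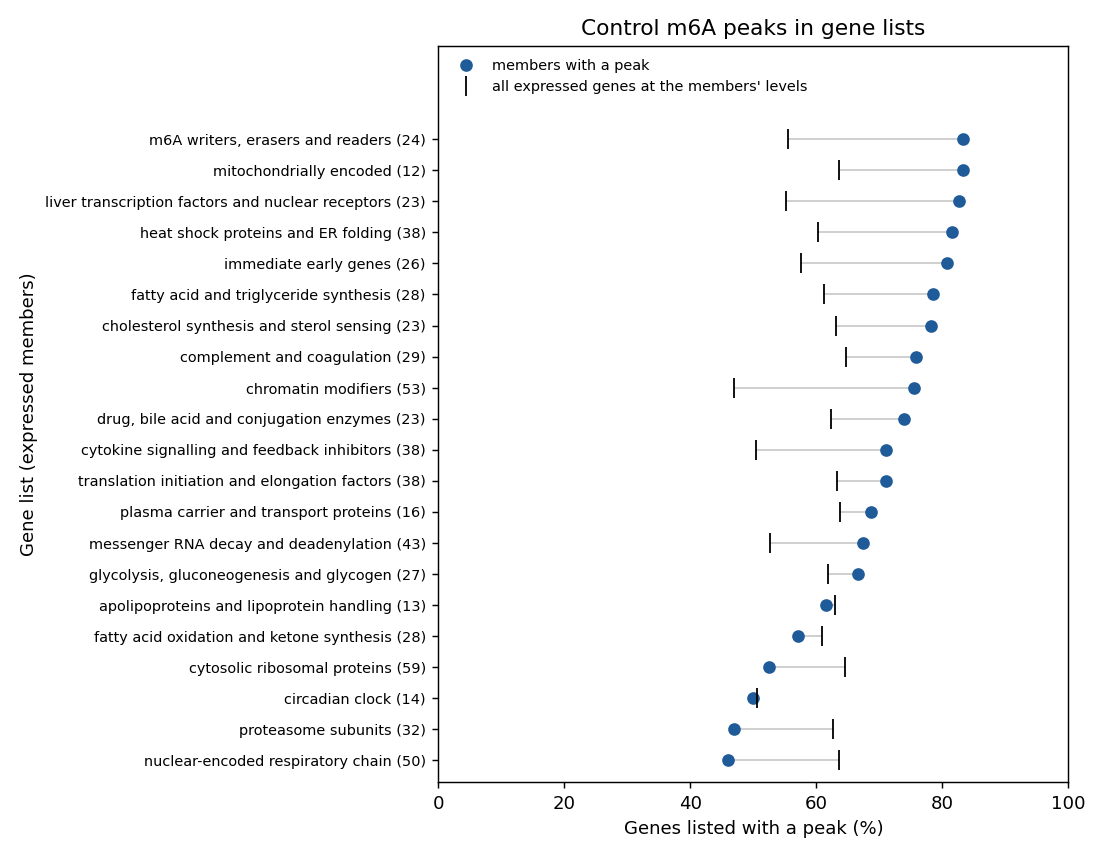
Share of the expressed members of each gene list with a control m6A peak (blue points), beside the share of all expressed genes at the members' FPKM levels (black ticks), with the number of expressed members in brackets. The m6A machinery (83.3%), mitochondrially encoded genes (83.3%) and liver transcription factors (82.6%) stand highest, and the nuclear-encoded respiratory chain (46.0%), proteasome subunits (46.9%) and cytosolic ribosomal proteins (52.5%) stand left of their ticks.

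The LPS list holds fewer peaks, 5938 in 3992 genes, beside 7813 in 5048 genes in the control list. Of the genes in the LPS list 91.5% were also in the control list, and of the genes in the control list 72.4% were also in the LPS list. Control peaks that overlapped an LPS peak by at least 1 base made up 46.0% of those under the lower quartile of control fold enrichment, 57.1% and 72.0% of those between it and the median and between the median and the upper quartile, and 80.6% of those above the upper quartile. The depth of the IP libraries is unknown, so whether a control peak missing from the LPS list was lost or was not detectable cannot be told apart.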

How the data were processed

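The control peak list and the 2 control input columns of the expression table were used, with the LPS list for overlap only. "Treat" in the file headers was read as LPS. ChIPseeker, HOMER, StringTie and HISAT2 appear in the submitters' processing notes with no role or version. No source used here names the peak caller, its filters, the genome build or any pooling of libraries, and the IgG control was not analysed here.

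The authors deposited FPKM per input library, and for each peak a fold enrichment (the IP over input ratio), a p-value, exon blocks and an annotation to 3′ UTR, 5′ UTR or exon. The highest deposited p-value is 0.00062, and 1108 are listed as 0. Peak widths and block numbers are also as the authors deposited them. No read counts were used, so no depth or counting interval is given.

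Here, peaks were joined to genes by Ensembl ID, and genes were called expressed at a mean of at least 1 FPKM. Exonic length is the sum of a peak's blocks. Shares, medians and Spearman's rank correlation were computed in Python 3.11.15 with pandas 2.3.3, numpy 2.4.6 and scipy 1.17.1, and drawn with matplotlib 3.10.9, and the code was tested on simulated data. They are descriptions: genes and peaks are not replicates, and the peak list has no values per library. The share of all genes at a list's levels weights the share of each of 7 FPKM classes by the list's members.

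Symbols are the table's, or for 27 genes RefSeq's (GRCg7b, names only), and 1698 genes have none. Of 957 names in the gene and marker lists, 719 matched. The members, lists and tests were chosen with earlier results of these data known. Named genes are the 20 highest in mean FPKM, the 10 highest with and without a peak, the 10 with most peaks, the genes of the 5 strongest and 5 weakest peaks, up to 3 genes with and 3 without a peak per list by level, and all m6A machinery genes. A few genes under this rule are not reported here. Others, among them CPS1, FGG, FASN, APOB, LCAT, ND2 and ENSGALG00000026592, were chosen after their values were seen. Alternatives were stricter peak thresholds (fold of at least 3.18, or p of at most 1e-54), other FPKM filters, each library alone, merged peaks, the highest peak per gene and other overlaps.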

Additional observations from a re-analysis of the deposited data

How the results depend on the processing

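With either control input library left out of the mean FPKM, the shares and correlations that were computed again changed little. The peak list, its folds and its p-values stayed as deposited, so these runs do not test the peaks. Levels of single genes and peak locations by level were not computed again. Counting only peaks of at least 3.18-fold gave a peak to 42.2% of expressed genes, 50 of the 100 most abundant, 52.2% of genes of 10 to 30 FPKM, 47.0% of those of 1000 FPKM and over and 54.6% of list members, 2 or more peaks to 27.0% of genes with a peak, and 3′ UTR and exon shares of 47.7% and 44.3%. Counting only peaks with p of at most 1e-54 gave 31.0% of expressed genes, 6.78% of those of 1 to 3 FPKM, 43.4% of those of 10 to 30 FPKM, 65.2% of those of 1000 FPKM and over, 51.4% of list members, 22.9% with 2 or more peaks, and 3′ UTR and exon shares of 52.8% and 39.1%. The bins under stricter thresholds were added after the data were seen. With no filter on FPKM 38.7% of genes had a peak and the rank correlation of fold with level was -0.24, and at 5 FPKM or more the values were 59.6% and -0.18. With each gene's highest peak alone, the rank correlation was -0.15 and the 3′ UTR and exon shares were 51.3% and 40.9%. Merging peaks within 100 bases left 33.7% of genes with 2 or more. A list was said to move when its share left the 95% Wilson interval of its main share, which covers counting error only. Of the 21 lists, 7 moved under the stricter fold, 6 under the stricter p and 2 at 5 FPKM. At 5 FPKM transcription factors reached 94.4% and the m6A machinery 94.1%. These intervals are wide for short lists, so an unmoved list need not be stable. Fatty acid and triglyceride synthesis, at 78.6% and at 60.7% under the stricter fold, counted as unmoved. Stricter thresholds leave fewer peaks by construction.

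No paired analysis was possible because the control peaks come as 1 list with no value per library. Read totals are unknown, which limits what an absent peak shows at low levels.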

Other observations

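The 10 expressed genes named as replication-dependent histones, at 2.10 to 33.8 FPKM on average, had no listed peak in any of them, beside shares of 26.9% to 63.9% of all genes in the FPKM classes they span. For 0 of 10 the 95% Wilson interval, which covers counting error only and treats the entries as independent, reaches 27.8%. Several of the 10 entries share the symbol H2A-VIII, and how reads were assigned among them is not known. Polyadenylated RNA was profiled, and whether it represents histone messages as it does those of other genes was not tested. These 10 genes were chosen after their values were seen. HBG2, described as the beta subunit of haemoglobin and carried mainly by red blood cells, stood at 360 and 364 FPKM in control input libraries 1 and 2 with a 5.25-fold 5′ UTR peak. It too was chosen after its value was seen. The 5 matched genes of the erythrocyte marker list went the other way: 4 were under 1 FPKM, and together they summed to 6.43 and 4.72 FPKM.

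By chromosome, the median fold enrichment of peaks was highest in the mitochondrial genome, at 11.5-fold over 21 peaks, and on chromosome 25, at 9.24-fold over 130 peaks. On chromosome 1, with the most peaks (866), it was 5.27-fold.

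Some peaks lay where little or no input was measured. Of 442 genes at 0 FPKM in both control inputs, 6 had a peak, and the 20 genes under 0.1 FPKM with a peak had a median highest fold of 11.7. A further 18 peaks belonged to 14 gene identifiers outside the expression table, 4 of them named as microRNA genes, with folds between 2.73 and 122.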
